A study of Mus musculus with 48 samples.

Results

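The prefrontal cortex of male mice that lack the DNA glycosylase Aag was compared between postnatal day 5 (P5) and 6 weeks of age (6W). The members are the 4 prefrontal knockout samples of each of these ages, 8 of the 48 samples of the series, and were chosen by the tissue, genotype and age that the sample titles give. Every knockout sample is labelled Aag KO, which the series' design text writes as Aag-/-, and the wild-type samples (WT) carry no other allele in the labels. No treatment is named, and the strain and the way the allele was made are not given in the sources used here. The series also holds the hippocampus and adults of 4 to 6 months (6M), with 4 samples in each of its 12 groups. The comparison asks which programmes of postnatal cortical development run their course in mice that lack Aag. The 4 WT prefrontal samples of each age and the 4 KO hippocampal samples of each age are given beside the KO values where a difference was tested.

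Aag, encoded by the gene Mpg, cuts alkylated and deaminated purines out of DNA and so starts base excision repair, in which a nuclease, a polymerase and a ligase then restore the strand. Between the first postnatal week and adolescence the rodent cortex, whose own neurons are nearly all born before birth while glia still divide, ends most of its axon extension, builds synapses, exchanges fetal subunits of transmitter receptors and ion channels for adult ones, and is wrapped in myelin by oligodendrocytes. Its inhibitory interneurons, astrocytes and microglia take on their adult gene expression in the same weeks.

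RNA was counted per gene. Total counts were 38382874, 30583315, 28792079 and 25955653 in the 4 KO P5 libraries and 27571309, 30739090, 23818596 and 29558644 in the 4 KO 6W libraries, in the order of replicates 1 to 4, which is used for every set of 4 values below. Levels are CPM, counts scaled to the size of the library, after TMM normalisation, which corrects library size for differences in composition. A change is a log2 fold change of 6W over P5, and a gene is said to rise or fall where edgeR's quasi-likelihood test gave a Benjamini-Hochberg adjusted p under 0.05 over all 18144 genes tested. KO P5 replicate 1 stood apart. Its log2 levels correlated with those of the other KO P5 libraries at Pearson r between 0.937 and 0.972 over 9746 genes, against 0.976 to 0.997 for the other pairs of libraries within the 4 prefrontal groups of P5 and 6W. KO P5 replicates 2 and 3 were the most alike of the 24 pairs, with a chi-square of their counts of 4.34 per degree of freedom against 10.63 to 160.7 for the others. They differed by more than sampling noise, for which that value is near 1, and were counted as separate samples. Mitochondrial transcripts took 6.33%, 11.5%, 12.4% and 8.74% of the counts at P5 and 17.6%, 15.8%, 14.5% and 17.3% at 6W. Without KO P5 replicate 1 the comparison called 11216 genes in place of 11133, and among the gene lists below its omission moved a count by more than 1.5 times only for chromatin (2 members higher in place of 0) and striatum (5 higher in place of 3).

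Markers of neighbouring tissues differed among libraries. Of 11 tested striatal genes, 3 were higher, 0 lower and 8 did not pass the test, and their summed level ran from 152 to 469 CPM at P5 and from 205 to 1068 CPM at 6W. Penk, the enkephalin precursor of striatal neurons, stood at 42.1, 7.54, 9.46 and 4.87 CPM at P5 and at 51.9, 51.6, 295 and 118 CPM at 6W. KO P5 replicate 1 and KO 6W replicates 3 and 4 were high for this gene within their groups, and the same libraries were high for Adora2a, an adenosine receptor of the striatum. Of 12 meningeal fibroblast genes, 9 were lower at 6W and none was higher, with summed levels of 292 to 519 CPM at P5 and 104.8 to 192 CPM at 6W. Col1a1, a fibroblast collagen, measured 120.2, 71.4, 49.1 and 43.4 CPM at P5 and 28.6, 12.4, 10.04 and 14.2 CPM at 6W. Of 7 tested choroid plexus genes, 2 were higher and 1 was lower, with summed levels of 59.1 to 86.2 CPM at P5 and 246 to 280.3 CPM at 6W, which do not overlap. Most of that sum was Enpp2, which oligodendrocytes also make, at 45.2, 69.1, 61.8 and 51.2 CPM and 253, 263, 227 and 267 CPM. Ttr, which defines the choroid plexus, lay between 1.36 and 8.48 CPM and overlapped between the ages. Of 9 genes listed for cells of the olfactory bulb, 2 were higher and 2 lower, with sums of 468 to 684 CPM and 447 to 532 CPM. Eomes, which is in the neural progenitor list as well, measured 0.400, 14.9, 12.7 and 2.33 CPM at P5, so replicates 2 and 3 stood above replicates 1 and 4. Which cells gave this signal was not tested. Of 9 hippocampal genes, 5 were higher and 1 was lower, and their summed level was 261 to 445 CPM at P5 and 607 to 642 CPM at 6W. Of 6 blood genes, 3 were higher and 0 lower, and their summed level was 153 to 230.2 CPM at P5 and 314 to 432 CPM at 6W. The part of these differences in the results below was not tested, except that each list was also counted without KO P5 replicate 1.

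Cortical markers were present. The upper-layer factor Cux2 and the cortical glutamate transporter gene Slc17a7 were read in all 8 libraries, Slc17a7 at 202, 223, 233 and 212 CPM at P5 and at 1313, 1185, 1101 and 1428 CPM at 6W. The targeted gene was checked next. Mpg (chromosome 11, 32226505 to 32232700, plus strand, GRCm38) stood at 1.47, 1.27, 1.12 and 1.36 CPM in KO at P5 and at 2.51, 1.51, 1.61 and 1.80 CPM in KO at 6W. In WT it stood at 8.81, 7.52, 7.13 and 7.71 CPM and 5.6, 5.71, 5.68 and 4.76 CPM. The KO samples lay below every WT sample at both ages. Within KO the remaining Mpg signal rose by 0.50 (SE 0.18, adjusted p 0.0186). That call was lost in 6 of 17 other settings or left-out libraries, among them KO P5 replicate 3, KO 6W replicate 1 and the total count scale. In WT the Mpg signal fell (-0.52, SE 0.16, adjusted p 0.00618), while the difference of these steps was not called (unadjusted p 0.000256, adjusted p over 0.99). The KO reads are uncertain as Mpg transcript, since 31.3% of its 75-base words (stretches of the read length) occur in antisense in other annotated genes and the strand setting of the counting is not given in the sources used here.

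Of the 18144 genes tested, 11133 (61.4%) changed between P5 and 6W in KO prefrontal cortex, 5480 (30.2%) higher and 5653 (31.2%) lower at 6W. A change larger than 1 log2 unit, tested against that size, was called for 3044 genes (16.8%), 1674 (9.23%) higher and 1370 (7.55%) lower, and for 9086 genes (50.1%) the 4 values of one age did not overlap the 4 of the other. With scaling by total count only, the median gene moved by -0.17 and the split became 4324 higher and 7026 lower. The counts below are on the TMM scale, on which the median gene changed by -0.02, and a call of a KO change that the total count scale ends is named beside the gene where that change is given. In bulk tissue, fewer cells of a type and less RNA per cell cannot be told apart. The plot of calls per gene list sets 33 lists of cell type and pathway genes beside these shares.

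**Figure D1:**
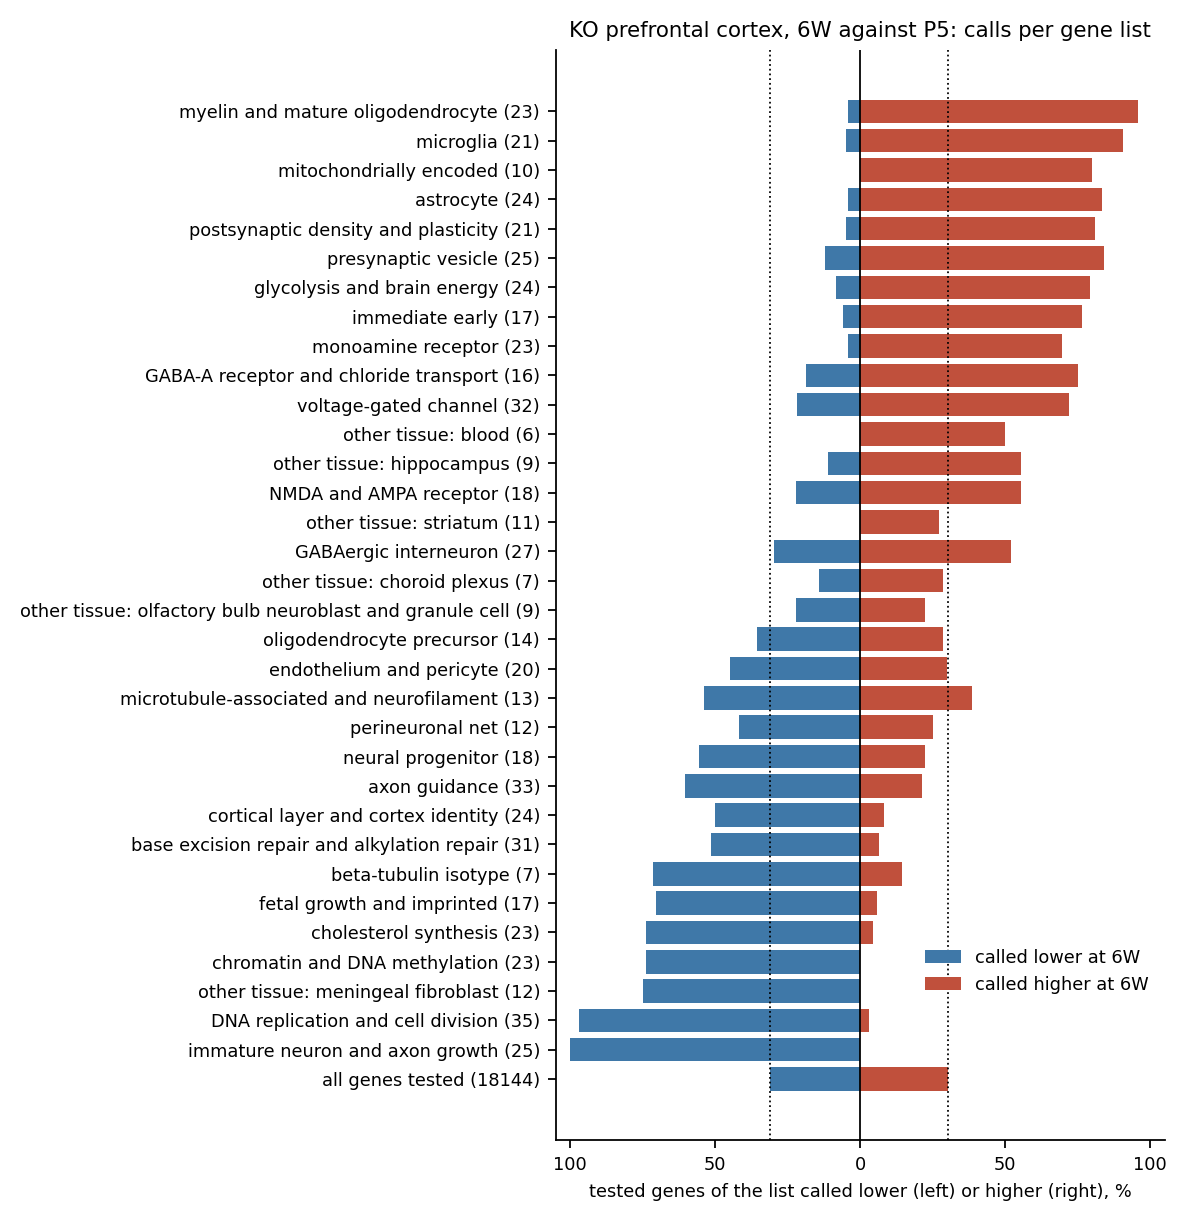
Share of the tested genes of each list (number tested in parentheses) that were called lower (blue, left) or higher (red, right) at 6W than at P5 in KO prefrontal cortex, in percent. Dotted lines mark the shares over all 18144 genes, 31.2% lower and 30.2% higher. All 25 tested genes of immature neurons were lower and 22 of 23 myelin genes were higher.

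Genes of immature, axon-extending neurons fell together. All 25 genes of this list fell, 24 of them by more than 1 log2 unit, and the median change was -3.11 in KO and -3.06 in WT, against -0.02 and 0.00 over all genes tested. Dcx, the microtubule-binding doublecortin of migrating neurons, went from 1848, 3008, 2789.9 and 2793 CPM at P5 to 123, 117, 56.9 and 71.9 CPM at 6W. Every 6W value lay below every P5 value, and KO P5 replicate 1 was the lowest of its group. The log2 change was -4.82 (SE 0.26) with an adjusted p of 2.83e-14. Gap43, a protein of growing axon tips, went from 919, 847, 813 and 1011 CPM to 153, 138, 155 and 142 CPM, 6.11-fold lower at 6W. Sox11, a transcription factor of newborn neurons, fell from 241, 254.96, 245 and 287 CPM to 19.1, 19.9, 25.6 and 13.9 CPM. Cd24a, a surface glycoprotein of young neurons, changed by -5.86 (SE 0.32) and was the member that fell most under the naming rule. Stmn1, which destabilises microtubules, changed by -1.83 and shares 15.4% of its 75-base words with other genes.

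Among all well-expressed genes (a log2 CPM of 5 or more on average) the 10 that fell most were led by Trim67, a brain-enriched ubiquitin ligase that acts in axon branching. It measured 680.5, 548, 511 and 805 CPM at P5 and 7.35, 5.95, 4.55 and 4.81 CPM at 6W, so its level at 6W was 112-fold lower (log2 change -6.81, SE 0.19, adjusted p 5.45e-19). The groups were separated by more than the whole spread within either. Next came Cd24a, then St8sia2 (-5.50), which builds the polysialic acid of the neural cell adhesion molecule, the collapsin response mediators Dpysl3 (-5.47) and Dpysl5 (-5.44), the tubulin Tubb2b, Dcx, the small GTPase Rac3 (-4.07), the adhesion receptor Cxadr (-3.90) and Sox11. In WT the changes of Trim67, St8sia2, Dpysl3 and Dpysl5 were -6.58, -5.33, -5.61 and -5.29.

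The cytoskeleton changed its make-up. Of 7 tested beta-tubulin genes, 1 rose, 5 fell and 1 did not pass the test. Tubb2b, a fetal neuronal isotype, measured 1761, 1558, 1393 and 2002 CPM at P5 and 60.0, 44.2, 44.4 and 44.4 CPM at 6W, a log2 change of -5.12 (SE 0.14), with 30.2% of its words shared with other genes. Tubb3, the pan-neuronal isotype, went from 1433, 1007, 993 and 1380.4 CPM to 188, 163, 200.1 and 207 CPM. Tubb4a, the isotype of mature axons and oligodendrocytes, measured 374, 258, 255.3 and 357 CPM and 428, 349, 419 and 536 CPM, which overlap, and rose by 0.48 (SE 0.13) with an adjusted p of 0.00242. Per kilobase of exon, Tubb4a made up 5.29, 4.30, 4.48 and 4.69% of the 7 isotypes at P5 and 28.8, 26.9, 29.5 and 33.8% at 6W, with no overlap. Among 13 microtubule-associated and neurofilament genes, 5 rose, 7 fell and 1 did not pass the test. Nefh, the heavy neurofilament of large axons, rose from 12.6, 12.9, 15.4 and 13.2 CPM to 98.0, 93.8, 97.6 and 111 CPM, and Mapt, which encodes tau, fell from 2426, 1983, 1879 and 2704 CPM to 326, 315, 417 and 399 CPM. Axon guidance genes were divided as well, and of 33 members 7 rose, 20 fell and 6 did not pass the test. Robo1, a Slit receptor, changed by -1.90 (SE 0.11), Ephb2, an ephrin receptor, by -2.76 (SE 0.19), Dcc, a netrin receptor, by -1.11 (SE 0.20), and Slit3, a ligand of Robo receptors, by 1.84 (SE 0.25). Sema3a, a repellent, did not pass the test (-0.33, adjusted p 0.119), but was called without KO P5 replicate 1 (-0.52, adjusted p 0.00404).

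Genes of DNA replication and cell division fell nearly without exception. Of 35 members, 1 rose, 34 fell, 29 of them by more than 1 log2 unit, with a median of -2.20 in KO and -2.22 in WT. Mki67, the Ki-67 antigen of cycling cells, went from 82.7, 55.5, 58.0 and 57.6 CPM at P5 to 8.03, 6.18, 3.93 and 4.02 CPM at 6W. KO P5 replicate 1 was the highest of all 8, and no 6W value came near the P5 values. The log2 change was -3.52 (SE 0.22), and -3.36 without that library. Top2a, the topoisomerase that untangles replicated chromosomes, went from 24.6, 19.4, 20.9 and 19.2 CPM to 1.73, 1.38, 2.98 and 1.04 CPM. Mcm2, a subunit of the replicative helicase, fell by a smaller factor, from 15.1, 9.56, 8.76 and 9.07 CPM to 3.98, 3.42, 3.97 and 3.23 CPM. Ccnd1, the cyclin of the G1 phase that neurons and glia also express, was the 1 member that rose (32.6, 21.2, 23.3 and 22.1 CPM to 47.3, 45.4, 38.6 and 39.8 CPM), with 20.6% of its words occurring in antisense in other genes.

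Because these genes moved together, the 250 bases before their RefSeq start sites (GRCm38.p6) were read for 3 kinds of element, on both strands. They were the E2F words TTTCCCGC, TTTGGCGC and TTTCGCGC, the CCAAT box and the CHR word TTTGAA of cell cycle promoters. A start site was at hand for 28 of the 35 genes. Of these, 6 held an E2F word, against 1.78% of 27025 genes, 24 held a CCAAT box, against 37.5%, and 8 held TTTGAA, against 18.3%. A match is a description of letters and not a binding site. Cdk1, the kinase that starts mitosis, and Mcm6, another helicase subunit, are shown as promoters with E2F words and CCAAT boxes, and Hmgcs1, which makes HMG-CoA early in cholesterol synthesis, as one of the 16 cholesterol genes of 17 with a start site that hold a CCAAT box (0 of 17 held an E2F word and 0 held TTTGAA). Capitals mark the words found, in either direction, and each sequence runs 5′ to 3′ on the strand of its gene. Cdk1 is the minus strand of chr10:69352939-69353162, without the 26 bases next to the start that an annotated exon covers, Mcm6 the minus strand of chr1:128359706-128359955 and Hmgcs1 the plus strand of chr13:119690101-119690350. In Mcm6 the first marked stretch is a pair of overlapping E2F words. The 3 genes were chosen after their values were seen.
Cdk1: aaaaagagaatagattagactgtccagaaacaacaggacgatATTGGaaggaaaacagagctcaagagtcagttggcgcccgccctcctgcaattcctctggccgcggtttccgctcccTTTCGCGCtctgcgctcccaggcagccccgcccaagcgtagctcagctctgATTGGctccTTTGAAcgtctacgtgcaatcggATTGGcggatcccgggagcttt
Mcm6: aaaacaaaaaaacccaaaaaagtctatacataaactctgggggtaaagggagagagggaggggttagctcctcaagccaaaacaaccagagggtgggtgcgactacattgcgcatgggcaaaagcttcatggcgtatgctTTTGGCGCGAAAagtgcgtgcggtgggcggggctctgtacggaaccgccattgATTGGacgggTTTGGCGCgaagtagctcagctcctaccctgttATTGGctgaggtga
Hmgcs1: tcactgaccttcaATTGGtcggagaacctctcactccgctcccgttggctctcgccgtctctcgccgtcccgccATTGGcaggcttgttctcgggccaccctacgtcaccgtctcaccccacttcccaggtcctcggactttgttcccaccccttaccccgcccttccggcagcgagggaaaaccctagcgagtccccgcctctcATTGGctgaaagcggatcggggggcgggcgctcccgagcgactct
Cdk1 itself measured 8.38, 9.02, 7.67 and 8.74 CPM at P5 and 0.825, 0.493, 0.661 and 0.539 CPM at 6W, and Mcm6 29.0, 32.5, 28.8 and 28.6 CPM and 9.94, 10.5, 11.7 and 7.97 CPM. Both fell without overlap, with changes of -3.75 (SE 0.32) and -1.57 (SE 0.12).

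Progenitor and fetal growth genes moved less evenly. Of 18 neural progenitor genes, 4 rose, 10 fell and 4 did not pass the test. Nes, the intermediate filament of progenitors, went from 18.9, 14.9, 13.7 and 15.1 CPM to 3.60, 4.99, 3.84 and 3.95 CPM, whereas Sox2, which astrocytes keep expressing, changed by -0.28 (adjusted p 0.109). Tnc, a matrix protein of the germinal zone, fell by 4.66 (SE 0.20), and Prom1, a membrane protein of progenitors and glia, rose by 0.61 (SE 0.14). Of 17 fetal growth and imprinted genes, 1 rose, 12 fell and 4 did not pass the test. H19, an imprinted noncoding RNA of fetal tissues, measured 14.3, 5.58, 7.71 and 4.34 CPM at P5 and 0.300, 0.131, 0.207 and 0.108 CPM at 6W, a log2 change of -5.41 (SE 0.54). Its neighbour Igf2, a growth factor that meningeal and vascular cells also make, fell by 2.82 (SE 0.50) and shares 60.3% of its words with other genes. Igf2bp1, an RNA-binding protein of fetal cells, was near the floor of detection at 6W, with 1.44, 0.784, 0.480 and 1.29 CPM at P5 and 0, 0, 0.0413 and 0.0718 CPM at 6W. Peg3, an imprinted zinc finger gene, was the only member of this list that rose (1.01, SE 0.11).

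Myelin genes rose steeply. Of 23 genes of myelin and mature oligodendrocytes, 22 rose, 20 of them by more than 1 log2 unit, and the median change was 3.58 in KO and 4.20 in WT. Their summed level went from between 256.3 and 293 CPM to between 2421 and 3527 CPM. Mbp, which encodes myelin basic protein, measured 47.6, 34.8, 34.2 and 42.6 CPM at P5 and 734, 665, 792 and 654 CPM at 6W. The groups stood 17.9-fold apart (log2 change 4.16, SE 0.18, adjusted p 7.95e-16). Mobp, a myelin protein that appears late, went from 0.800, 1.84, 1.92 and 1.08 CPM to 317, 322, 335 and 226 CPM and was the member that rose most under the naming rule (7.75, SE 0.33). Mog, a protein of the outer myelin surface, went from 0.378, 0.392, 0.448 and 0.215 CPM to 44.9, 41.7, 50.8 and 37.8 CPM. Ndrg1, which is also induced by low oxygen and is made by other cells, was the 1 member that fell (-0.73, SE 0.13).

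Precursor markers did not follow. Of 14 oligodendrocyte precursor genes, 4 rose, 5 fell and 5 did not pass the test, shares near those over all genes. Pdgfra, the growth factor receptor of precursors, fell from 68.5, 70.6, 71.0 and 67.2 CPM to 43.1, 49.1, 41.1 and 40.9 CPM. Gpr17, a receptor of cells about to differentiate, overlapped between ages (33.4, 21, 19.7 and 34.2 CPM and 38.7, 32.8, 27.6 and 38.2 CPM) and passed the test only without KO P5 replicate 1 or 4 or KO 6W replicate 3. Bcas1, a marker of newly myelinating cells, rose by 2.78 (SE 0.20). Cholesterol synthesis, on which myelin growth draws, fell at the RNA level. Of 23 genes, 1 rose, 17 fell and 5 did not pass the test, with a median of -1.17 in KO and -1.38 in WT. Sqle, squalene epoxidase, measured 197, 265, 251 and 276 CPM at P5 and 89.0, 91.2, 89.1 and 77.0 CPM at 6W. The groups did not overlap, and the change was -1.51 (SE 0.10). Acat2 fell by 2.19 (SE 0.11) but shares 33.9% of its words with other genes, and Cyp46a1, the neuronal enzyme that clears cholesterol, was the 1 member that rose, from 34.4, 24.0, 23.1 and 28.1 CPM to 100.2, 102, 113 and 132 CPM.

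**Figure D2:**
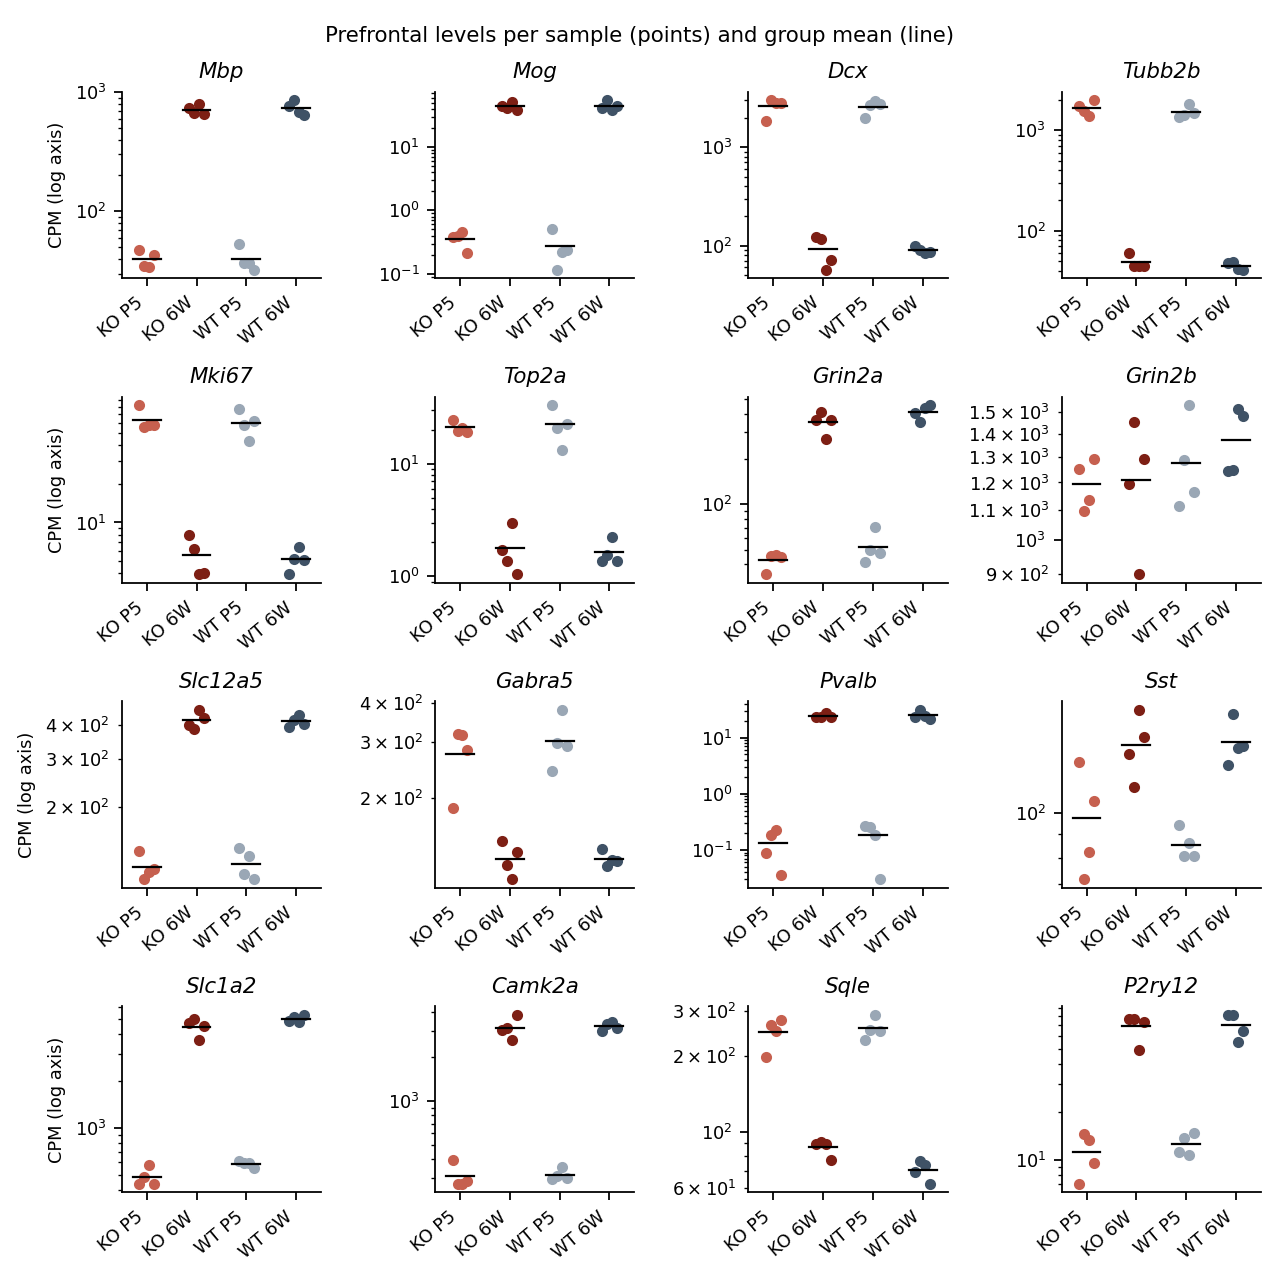
TMM-normalised CPM (log axis, a scale of its own in each panel) of 16 genes in the 4 samples of each prefrontal group, with a line at the group mean. Red shades are KO and grey-blue shades WT. The KO 6W samples sit far from the KO P5 samples for Mbp, Mog, Dcx, Tubb2b and Pvalb, and overlap them for Grin2b and Sst.

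Synaptic genes rose in most cases. Of 25 presynaptic vesicle genes, 21 rose, 3 fell and 1 did not pass the test, and of 21 postsynaptic density and plasticity genes, 17 rose, 1 fell and 3 did not pass the test. The median changes were 0.99 in KO and 1.05 in WT for the first list and 1.19 in KO and 1.24 in WT for the second. Slc17a7, the vesicular glutamate transporter of cortical neurons given above, rose by 2.53 (SE 0.12). Its subcortical relative Slc17a6 fell from 30.3, 83.1, 75.0 and 43.5 CPM to 26.0, 24.2, 25.5 and 18.8 CPM. At P5 the libraries stood in the same order for Slc17a6 as for Eomes (0.400, 14.9, 12.7 and 2.33 CPM). The Slc17a7 share of the pair ran in the reverse order (87.0, 72.9, 75.7 and 83.0%). The part of neighbouring tissue in this fall was not tested. Vamp1, a vesicle fusion protein of fast synapses, rose from 8.00, 5.31, 5.24 and 5.81 CPM to 60.9, 58.7, 67.4 and 73.9 CPM (3.41, SE 0.13), and its partner isoform Vamp2 rose by 0.91 (SE 0.09). Camk2a, the kinase of synaptic plasticity, went from 396, 274, 272 and 287 CPM to 3038, 3108, 2580.3 and 3863 CPM, 10.2-fold higher at 6W. KO P5 replicate 1 was the highest of the P5 samples. The scaffold genes rose by less, Dlg4, which encodes PSD-95, by 0.48 (SE 0.13) and Dlg3, which encodes SAP102, by 0.63 (SE 0.09), and the call of Dlg4 was lost on the total count scale. Syn3, a synapsin of immature neurons, fell by 1.76 (SE 0.18), with 13.5% of its words occurring in antisense in other genes.

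Glutamate receptor genes moved unequally. Of 18 NMDA and AMPA receptor genes, 10 rose, 4 fell and 4 did not pass the test, with a median change of 0.32 in KO. Grin2a, the adult GluN2A subunit, measured 34.3, 45.3, 46.0 and 44.4 CPM at P5 and 361, 409, 273 and 364 CPM at 6W. The groups did not overlap, and the change was 3.05 (SE 0.15, adjusted p 8.59e-15). Grin2b, the juvenile GluN2B subunit, measured 1252, 1096, 1137 and 1294 CPM and 1193, 1453, 898 and 1294 CPM, which overlap. Its log2 change was 0.02 (SE 0.13), with a 95% interval of -0.24 to 0.28. Per kilobase, Grin2a made up 3.66, 5.42, 5.31 and 4.54% of the pair at P5 and 29.5, 28.1, 29.6 and 28% at 6W. Grin3a, another juvenile subunit, fell by 1.01 (SE 0.10), Gria3, an AMPA receptor subunit, rose by 1.82 (SE 0.12), and Shisa6, an AMPA receptor auxiliary protein, fell by 2.13 (SE 0.12).

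Of 16 GABA-A receptor and chloride transport genes, 12 rose, 3 fell and 1 did not pass the test. Gabra5, an alpha subunit prominent in early life, fell from 186, 319, 316 and 284 CPM to 146, 123, 111 and 135 CPM (-1.10, SE 0.14), without overlap. Slc12a5, the transporter KCC2 that lowers chloride in mature neurons, rose from 139, 109, 116 and 119 CPM to 400.3, 387, 456 and 423 CPM. Slc12a2, the importer NKCC1 that glia also use, rose too, by 0.64 (SE 0.13). Of 32 voltage-gated channel genes, 23 rose, 7 fell and 2 did not pass the test. Scn1a, an adult sodium channel, rose by 2.03 (SE 0.11) and Scn3a, the fetal one, fell by 1.12 (SE 0.12), so that Scn1a went from 30.4, 27.7, 25.7 and 28.1% to 75.4, 77.7, 78.2 and 78.1% of the pair. Scn2b, an accessory sodium channel subunit, rose from 16.0, 13.4, 12.9 and 14.3 CPM to 189.6, 195, 248 and 209 CPM, and Kcna1, a potassium channel of axons, from 16.0, 17.1, 21.2 and 16.0 CPM to 116, 120.3, 91.8 and 152 CPM. Hcn3, a pacemaker channel, fell by 2.05 (SE 0.14), with 15.2% of its words occurring in antisense in other genes.

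The shares of Grin2a, Scn1a, Vamp1 and Tubb4a, of Slc17a7 against Slc17a6 and of Slc12a5 against Slc12a2 were each higher in 4 of 4 KO samples at 6W than in all 4 at P5. Each reached the exact 2-sided permutation p of 0.0286, the smallest that 4 against 4 samples allow, and 0.0857 after Benjamini-Hochberg adjustment over 21 such tests, which does not pass 0.05. The means of the Grin2a share were 4.73% ± 0.814 (SD, n = 4) and 28.8% ± 0.883 (SD, n = 4) in KO, and 5.32% ± 0.488 and 29.4% ± 1.36 in WT.

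**Figure D3:**
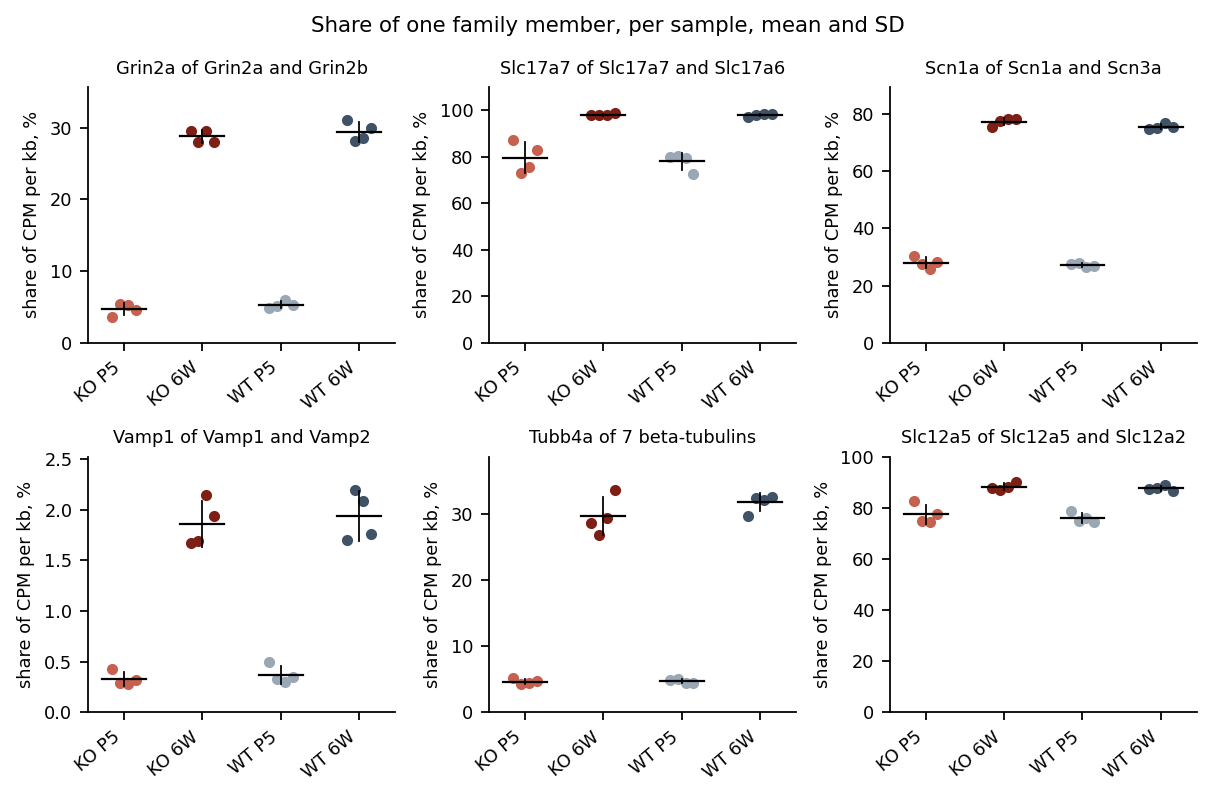
Share of 1 family member in the summed CPM per kilobase of its family, in percent, for the 4 samples of each prefrontal group (points), with mean (line) and SD (bar). In KO all 6 shares at 6W lie above all P5 values, and the shares in WT lie near those in KO at the same age.

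Receptors for serotonin, noradrenaline and dopamine rose in 16 of 23 cases, with 1 falling. Htr2a, the receptor through which serotonin excites cortical pyramidal cells, went from 15.0, 28, 27.0 and 23.3 CPM to 108, 119.9, 79.6 and 129 CPM. Htr1a, an inhibitory serotonin receptor, went from 9.25, 7.6, 9.02 and 8.42 CPM to 34.4, 33.0, 30.5 and 33.3 CPM, and Htr2c changed by 2.16 (SE 0.26). Immediate early genes, which neuronal activity induces within minutes, rose in 13 of 17 cases. Egr1 measured 45.3, 35.2, 44.2 and 26.4 CPM at P5 and 153, 189, 255.3 and 365 CPM at 6W, a wide spread at 6W that still did not meet the P5 values. Arc, which regulates AMPA receptor removal, rose by 3.82 (SE 0.65), Fos by 1.81 (SE 0.66) and Npas4 by 1.64 (SE 0.57). The call of Fos was lost without KO P5 replicate 4 and that of Npas4 without KO 6W replicate 4. Nr4a3 was the 1 member that fell (-0.83, SE 0.24).

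Interneuron genes moved both ways. Of 27 members, 14 rose, 8 fell and 5 did not pass the test, where 30.2% of all genes tested rose and 31.2% fell. Pvalb, the calcium buffer of fast-spiking basket cells, measured 0.0889, 0.181, 0.224 and 0.0358 CPM at P5 (1 to 7 counts) and 23.1, 23.0, 26.9 and 23.7 CPM at 6W, and its change of 7.48 (SE 0.27) had an adjusted p of 1.92e-17. Vip, the peptide of a late-maturing interneuron class, rose from 2.38, 3.68, 5.34 and 2.72 CPM to 32.3, 31.2, 27.4 and 27.1 CPM. Sst, the peptide of another class, overlapped between the ages, with 129, 71.8, 82.3 and 106 CPM and 134, 114, 167 and 146 CPM, and rose by 0.53 (SE 0.16, adjusted p 0.00545), a call lost on the total count scale. Gad1, which makes GABA, rose by 1.52 (SE 0.20) and Calb1 by 2.60 (SE 0.18), while Dlx2, a homeobox gene of migrating interneurons, fell by 2.08 (SE 0.30). Lhx6 and Dlx1 also fell, with changes of -1.63 (SE 0.20) and -1.80 (SE 0.30). They were chosen after their values were seen, from the 8 members that fell, and do not stand for the list. Striatal neurons express several of these genes too, and the striatal markers that varied among these libraries are given above. Of 12 tested genes of the perineuronal net, the matrix around Pvalb cells, 3 rose, 5 fell and 4 did not pass the test. These shares are not far from those over all genes tested. Hapln4, a link protein of the mature net, rose from 1.64, 1.57, 1.82 and 0.932 CPM to 104, 95.3, 97.4 and 130.4 CPM, and Vcan, a proteoglycan of juvenile matrix, fell from 218, 281, 249 and 293 CPM to 31.2, 38.7, 21.5 and 26.9 CPM. Acan, the main proteoglycan of the net, stayed between 0.992 and 2.05 CPM (-0.23, SE 0.25, adjusted p 0.435).

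Astrocyte and microglia genes rose. Of 24 astrocyte genes, 20 rose, 1 fell and 3 did not pass the test. Slc1a2, the main glutamate transporter, went from 439, 485, 576 and 435 CPM to 4727, 5009, 3659.6 and 4486 CPM, and S100b, a calcium-binding protein of astrocytes and oligodendrocytes, from 2.85, 2.99, 4.16 and 2.08 CPM to 76.5, 69.2, 83.0 and 77.0 CPM. Aqp4, the water channel of astrocyte endfeet, overlapped between the ages and rose by 0.44 (SE 0.17, adjusted p 0.031). That call was lost in 7 of 17 other settings or left-out libraries. Among them were KO P5 replicate 1 (adjusted p 0.126), KO P5 replicate 4, KO 6W replicate 1, KO 6W replicate 2 and the total count scale. Gfap, the filament of reactive and white matter astrocytes, did not pass the test (49.6, 21.2, 23.1 and 13.5 CPM and 45.3, 37.3, 42.9 and 29.5 CPM) but did so without KO P5 replicate 1 (log2 change 1.004, adjusted p 0.000238). Of 21 microglia genes, 19 rose, 1 fell and 1 did not pass the test, with a median of 1.77 in KO and 2.10 in WT. P2ry12, a purine receptor of surveying microglia, rose from 7.05, 14.5, 13.4 and 9.53 CPM to 76.5, 77.0, 48.6 and 73.5 CPM, Cx3cr1, the fractalkine receptor, from 21.3, 14.4, 16.0 and 14.2 CPM to 58.8, 60.9, 59.1 and 71.1 CPM, and the protease Ctss by 3.02 (SE 0.16). Lpl, a lipase that early microglia express, and neurons as well, fell by 1.67 (SE 0.19).

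Vessel genes moved both ways. Of 20 genes of endothelium and pericytes, 6 rose, 9 fell and 5 did not pass the test. Over all genes tested, 30.2% rose and 31.2% fell, so movement both ways is not particular to vessel genes. The barrier transporters Slco1a4 and Abcb1a rose, Slco1a4 from 2.4, 4.43, 5.08 and 2.44 CPM to 56.6, 64.4, 56.5 and 44.5 CPM and Abcb1a by 1.32 (SE 0.19), with 12.5% of the words of Abcb1a shared with other genes. The junction genes Cldn5 and Cdh5 fell, with changes of -1.27 (SE 0.18) and -1.50 (SE 0.18), and the adhesion gene Pecam1 did not pass the test (-0.23, adjusted p 0.0932).

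Energy genes rose with age. Of 24 genes of glycolysis and brain energy supply, 19 rose, 2 fell and 3 did not pass the test. Ldhb, the lactate dehydrogenase subunit of oxidative cells, went from 96.9, 69.6, 78.6 and 67.6 CPM to 247, 242, 291 and 279.7 CPM, with 12.6% of its words shared, whereas Ldha did not pass the test (0.14, adjusted p 0.191). Eno2, the neuronal enolase, rose by 2.13 (SE 0.13), and Slc16a1, a monocarboxylate transporter that carries ketone bodies into the suckling brain, fell from 62.5, 78.2, 75.2 and 63.7 CPM to 49.4, 46.9, 30.9 and 27.8 CPM. Of 10 tested mitochondrially encoded genes, 8 rose and 0 fell. mt-Nd1, a subunit of complex I, measured 8272, 15413, 16049 and 12172 CPM at P5 and 20415, 17777, 16485 and 23957 CPM at 6W, and KO P5 replicate 1 was the lowest. Its change was 0.60 (SE 0.18), and 0.43 without that library. mt-Co1 rose by 0.95 (SE 0.17), with 39.8% of its words shared with other genes, and mt-Atp6, with 99.5% of its words shared, was counted at 0.248 to 1.11 CPM and says little of that transcript.

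Genes of cortical layers and cortex identity, most of them transcription factors, mostly fell or did not pass the test. Of 24, 2 rose, 12 fell and 10 did not pass the test. Rasgrf2, an exchange factor of upper-layer neurons and no transcription factor, rose most, from 86.5, 99.6, 97.1 and 127 CPM to 209, 264, 189.8 and 294 CPM (1.22, SE 0.14). Cux2, an upper-layer factor, overlapped between the ages (-0.04, SE 0.16), as did Foxp2, a deep-layer and striatal factor, at 75.2, 30.4, 29.4 and 28.9 CPM and 20.3, 15.5, 53.7 and 26.5 CPM. KO P5 replicate 1 and KO 6W replicate 3 were high for Foxp2. Of 23 genes of chromatin and DNA methylation, 0 rose, 17 fell and 6 did not pass the test. Dnmt3a, which methylates neuronal DNA anew, fell from 131, 104, 111 and 108 CPM to 40.0, 44.3, 34.6 and 38.1 CPM, and Uhrf1, which maintains methylation at replication, from 6.67, 2.86, 2.37 and 3.01 CPM to 0.413, 0.164, 0.496 and 0.144 CPM. Tet1, which oxidises methylated cytosine, changed by -1.72 (SE 0.13).

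The repair pathway that Aag feeds was read member by member. Of 31 genes of base excision and alkylation repair, 2 rose, 16 fell and 13 did not pass the test in KO, and 1 rose and 14 fell in WT. Without KO P5 replicate 1 the KO counts were 3 and 13. Among the glycosylases, Ung, which removes uracil, went from 3.91, 2.32, 2.53 and 2.54 CPM to 1.31, 1.41, 1.45 and 1.26 CPM. Polb, the polymerase that fills the gap, rose from 28.6, 32.7, 34.1 and 30.8 CPM to 35.7, 38.8, 38.8 and 34.8 CPM (0.23, SE 0.09, adjusted p 0.024). That call was lost in 8 of 17 other settings or left-out libraries. Among them were KO P5 replicate 1 (adjusted p 0.0767), KO P5 replicate 4, KO 6W replicate 2 and KO 6W replicate 3. Xrcc1, the scaffold of the ligation step, overlapped between the ages and fell by 0.41 (SE 0.15, adjusted p 0.0185). Its call was lost in 4 of 17, among them without KO P5 replicate 1 (adjusted p 0.135) or KO 6W replicate 2. Lig1, the ligase of replication and long-patch repair, fell from 23.6, 14.7, 14.7 and 17.5 CPM to 5.25, 5.91, 7.69 and 6.25 CPM. Rfc1, which loads the replication clamp, rose by 0.27 (SE 0.08). Polb and Rfc1 were the 2 genes that rose, and on the total count scale neither was called. Mpg is not among the 31 genes. None of them had an unadjusted interaction p under 0.05, where 3.1% of all genes tested did, a share that amounts to about 1 gene in a list of this size.

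Whether the KO step differed from the WT step was tested gene by gene, as the interaction of genotype and age. In WT, 11034 genes (60.8%) changed, 5543 (30.6%) higher and 5491 (30.3%) lower. The interaction was called for 2 of 18144 genes (0.011%), Pttg1 and Aldh2, and 563 genes (3.1%) had an unadjusted p under 0.05. In all, 1389 genes were called in KO alone and 1290 in WT alone, but 0 of the first and 1 of the second were called in the interaction, so that these lists do not show a difference between genotypes. The 95% interval of the difference lay within 1 log2 unit of 0 for 12393 genes (68.3%) and for 1816 of the 3044 genes past 1 log2 unit in KO. The median half-width of that interval was 0.48, and 0.32 for the 5262 well-expressed genes. The intervals use standard errors derived from the F statistic, which can come out too small where the difference is near 0. For H19 the SE of the difference was 0.027, against 0.54 and 0.61 for its KO and WT steps. The number of genes within 1 log2 unit may therefore be too high. In data simulated with known differences in genes with a mean above 1 CPM, and with no other age step, this test called 170 genes. They held 64% of genes whose steps differed by 1 log2 unit and 98% of those that differed by 2. The adjusted threshold is looser where more genes are called, and the data gave 2 calls. These shares are therefore higher than the test would reach in the data. Across genes, the KO and WT changes had a Pearson r of 0.944. Over the 3006 genes past 1 log2 unit in WT the slope of KO on WT was 0.937. The KO and WT steps share no sample, and genes are not independent replicates.

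**Figure D4:**
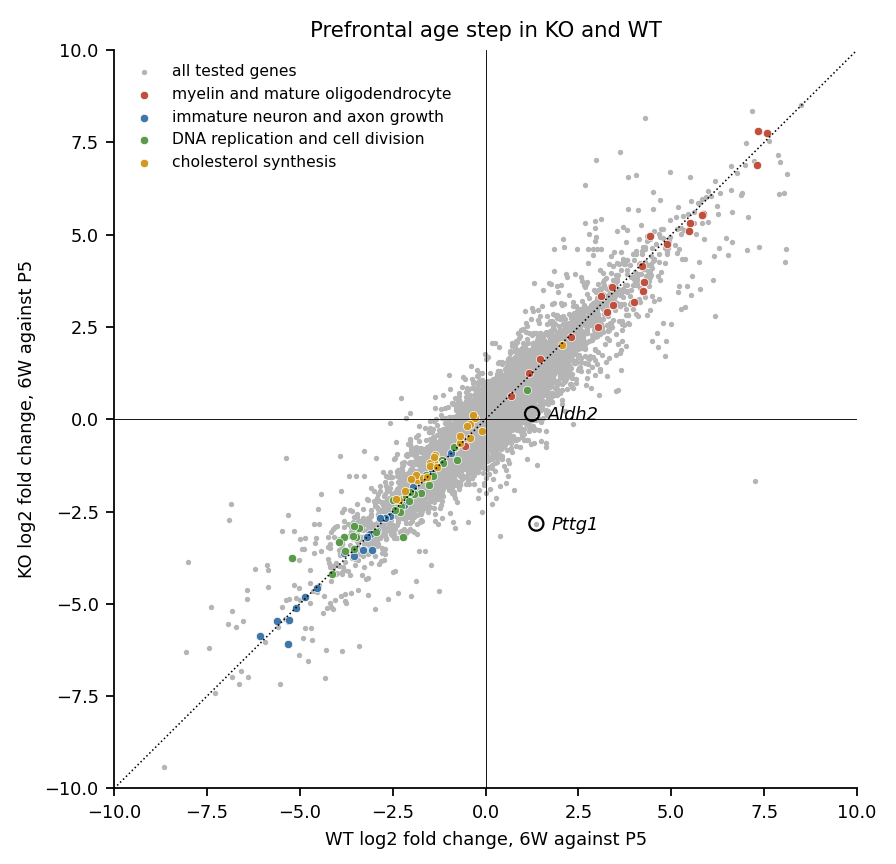
Log2 fold change of 6W over P5 in KO (vertical axis) against WT (horizontal axis) for 18144 prefrontal genes, with 4 gene lists in colour and the line of equal change dotted. Pttg1 and Aldh2, the 2 genes called in the interaction, are ringed, and Pttg1 lies at -2.83 in KO and 1.37 in WT.

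Pttg1 (securin, which holds sister chromatids together until anaphase; chromosome 11, 43420250 to 43426251, minus strand) measured 5.22, 3.47, 3.58 and 3.58 CPM in KO at P5 and 0.675, 0.657, 0.496 and 0.395 CPM in KO at 6W. In WT it measured 9.59, 8.91, 9.86 and 10.1 CPM and 27.5, 24.0, 25.4 and 22.4 CPM. In KO all 6W values lay below all P5 values, and in WT all lay above. The log2 change was -2.83 (SE 0.21) in KO and 1.37 (SE 0.15) in WT, a difference of -4.20 (SE 0.26, adjusted p 2.86e-10). Pttg1 and Ublcp1 lie on the same chromosome as Mpg. Aldh2 and Gabra2 share chromosome 5 but lie far apart on it, with Gabra2 at 70957597 to 71095849. Aldh2, the mitochondrial aldehyde dehydrogenase (chromosome 5, 121566027 to 121593824, minus strand), measured 23.2, 16.2, 16.1 and 16.2 CPM in KO at P5 and 21.1, 15.7, 19.4 and 23.4 CPM at 6W, which overlap (0.15, SE 0.13, adjusted p 0.319). Without KO P5 replicate 1 the KO rise of Aldh2 was called (0.30, adjusted p 0.0285). In WT it rose from 3.04, 2.82, 2.58 and 3.62 CPM to 7.27, 6.81, 7.66 and 7.02 CPM (1.25, SE 0.14). The difference of -1.10 (SE 0.19) had an adjusted p of 0.0359, and was not called in 14 of 25 other settings or left-out libraries, KO P5 replicate 1 among them. Gabra2 stood at 151, 275, 257 and 193 CPM in KO at P5 and 387, 386, 409 and 325 CPM at 6W, above 66.1, 68.0, 63.0 and 71.6 CPM and 202, 164, 131 and 149.8 CPM in WT. It rose in both, by 0.78 (SE 0.18) and 1.27 (SE 0.18), and the difference of -0.49 was not called (95% interval -0.9986 to 0.03). Ublcp1, a proteasome phosphatase gene, rose by 0.58 (SE 0.14) in KO and 0.47 in WT, with 22.6% of its words shared with other genes. It measured 4.42, 6.82, 6.75 and 6.63 CPM and 8.51, 9.99, 9.92 and 8.29 CPM in KO, below every WT sample of the same age, with genotype differences of -1.38 (SE 0.14, adjusted p 1.32e-06) at P5 and -1.27 (SE 0.13, adjusted p 4.28e-06) at 6W.

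**Figure D5:**
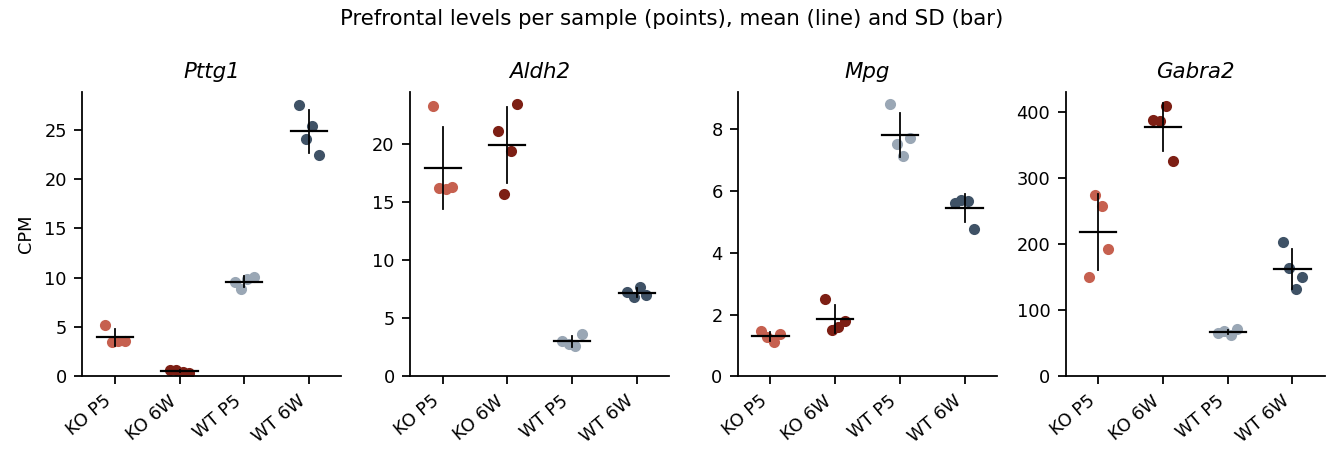
CPM of Pttg1, Aldh2, Mpg and Gabra2 in the 4 samples of each prefrontal group (points), with mean (line) and SD (bar). Pttg1 falls below 1 CPM in KO at 6W and exceeds 22 CPM in WT at 6W, and Aldh2 overlaps between the ages in KO.

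Of the other genes named for the smallest interaction p in each direction, Vdac3-ps1, a pseudogene with 73.7% of its words shared with other genes, changed by 0.66 in KO, a call lost without any of 4 single libraries, on the total count scale and with no filter on low counts, and by -1.16 in WT. Gm45790, a predicted gene, was at or under 0.862 CPM in every KO sample. Gh, growth hormone, measured 0.222, 3.20, 0 and 0 CPM in KO at P5 and 0, 0, 0.207 and 0.862 CPM at 6W, with 1 high library at P5. Called in both genotypes with opposite signs were Mpg, Pttg1, Vdac3-ps1 and Pskh1, the last named after its values were seen, and of these the interaction called Pttg1. By list, no member of the myelin, immature neuron, astrocyte, presynaptic, postsynaptic, chromatin, repair or beta-tubulin lists had an unadjusted interaction p under 0.05, against 3.1% of all genes. The cholesterol list had 6 of 23, Sqle among them (-1.51 in KO and -1.87 in WT), and 3 without KO P5 replicate 1, when the share over all genes was 2.82%. Microglia and endothelium had 3 of 21 and 3 of 20, and 0 in each without that library. DNA replication and cell division had 3 of 35 and the voltage-gated channels 3 of 32, and 3 in each without it. The mitochondrially encoded genes went the other way, from 0 of 10 to 3 of 10 without it, and the median of their interaction from -0.26 to -0.44. The postsynaptic, glycolysis and striatum lists each went from 0 to 1. Every other list had at most 1 such gene with and without that library. No gene of any of these lists was called in the interaction, with or without it, and Pttg1, a cell division gene, is in none of them.

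The same step was set beside that in the hippocampus of KO mice. The interaction of tissue and age was called for 1754 of 18849 genes (9.31%), 965 (5.12%) with the larger change in prefrontal cortex and 789 (4.19%) with the smaller, where larger means toward higher levels at 6W. In hippocampus 58.1% of the genes changed with age. Whether both tissues came from the same animals is not stated. Myelin genes differed in 1 direction. For 13 of 23 the prefrontal rise was smaller and for 0 larger. The median change was 3.58 in prefrontal cortex and 5.47 in hippocampus, and the median of the differences gene by gene was -1.09. Mbp rose by 4.16 in prefrontal cortex and by 5.58 in hippocampus, a difference of -1.41 (SE 0.32, adjusted p 0.00162). Monoamine receptors differed the other way, with 8 of 23 toward prefrontal cortex and 0 toward hippocampus. Htr2a rose by 2.23 in prefrontal cortex and 1.07 in hippocampus (difference 1.17, SE 0.25). No member of the cholesterol or mitochondrial lists was called.

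Among the genes with the greatest prefrontal excess were Crym, a thyroid hormone binding protein, Car10, a carbonic anhydrase relative at synapses, Rasgef1b, an exchange factor, Sstr2, a somatostatin receptor, and Fam107a, an actin-binding protein of glia and neurons. Car10 went from 21.3, 22.5, 21.3 and 13.9 CPM to 259, 225, 182 and 268 CPM in prefrontal cortex, a change of 3.56 (SE 0.18), against 1.11 in hippocampus. Fam107a rose most of all well-expressed genes in KO prefrontal cortex, from 6.33, 4.58, 4.70 and 2.72 CPM to 247, 282, 268 and 275 CPM, and by 3.84 in hippocampus. Crym changed by 0.87 in prefrontal cortex and -1.58 in hippocampus, and Sstr2 by 0.47 and -1.76. The prefrontal call of Sstr2 was lost on the total count scale. Among those with the greatest hippocampal excess were Cpne6, a calcium sensor of dendritic spines, Myo5b, a vesicle motor, Adcy1, a calcium-activated cyclase, and Trpm3, a cation channel. Cpne6 rose by 0.74 in prefrontal cortex and by 2.92 in hippocampus. Myo5b, whose levels did not overlap in prefrontal cortex, went there from 74.3, 67.1, 66.5 and 70.5 CPM to 32.3, 33.2, 41.0 and 40.9 CPM, and changed by 1.18 in hippocampus, and Adcy1 changed by -0.46 and 1.45.

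Few genes were called after 6W in KO cortex. Between 6W and 6M, 17 of 18144 genes (0.0937%) were called, 7 (0.0386%) higher and 10 (0.0551%) lower, and 2014 (11.1%) had an unadjusted p under 0.05. At 6M the means were 578 ± 20.05 CPM (SD, n = 4) for Mbp, 88.2 ± 20.9 CPM (SD, n = 4) for Dcx, 375 ± 41.2 CPM (SD, n = 4) for Grin2a and 0.565 ± 0.240 CPM (SD, n = 4) for Pttg1. Their log2 changes from 6W were -0.30, -0.06, 0.09 and -0.09, with adjusted p-values of 0.5, 0.938, 0.827 and 0.929. Among the well-expressed genes that had risen most from P5 were Fam107a, Cntnap1, which organises the axon beside the node of Ranvier (4.63, SE 0.19), Mbp, the membrane protein Ano3 (4.03, SE 0.16), the neurite protein Nrn1 (3.94, SE 0.18, 19.1% of its words in antisense), Scn2b, Zfp365, a zinc finger gene of neuronal and oligodendrocyte differentiation (3.64, SE 0.12), Slc24a2, a sodium-calcium exchanger (3.61, SE 0.16), and Car10.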

How the data were processed

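RNA of the prefrontal cortex was analysed as deposited counts per gene. The authors deposited 1 table of raw read counts, 54838 gene IDs by 48 samples. Per the labels, poly(A) RNA was made into stranded libraries and read as 75-base single ends. Per the submitters' processing notes, bcl2fastq 2.20.0.422, STAR 2.4.0 and HTSeq were used with build GRCm38, and the strand setting and annotation are not given in the sources used here. IDs were placed in GENCODE M21, which gave a symbol to 54723 of them, and the other 115 held 0.0324% of counts.

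Samples were grouped by their titles, and nothing in the labels says whether replicates are separate animals, so p-values measure the spread between these samples. edgeR 4.0.16 (R 4.3.3) fitted 24 prefrontal samples in 6 groups with TMM factors, its default filter on low counts (18144 genes kept) and a quasi-likelihood test, adjusted by Benjamini-Hochberg over all genes at 0.05. The tissue comparison and all hippocampal values came from a fit of all 48 samples (18849 genes). Standard errors were derived from the F statistic. Levels per kilobase use the exon length. In simulated counts for the KO age step over 17651 genes, the test called 85% of genes given a step of 1 log2 unit, 100% of genes given a step of 2, and 4.64% false ones among its calls, and the interaction gave 64%, 98% and 4.71%. These shares hold for the simulated number of true changes, on which the adjusted threshold depends, and not for the data. Replicate numbers were not taken as pairs, since same-numbered samples did not all deviate together. Alternatives were DESeq2 1.42.0, other scalings and filters, a test against a log2 change of 1, the samples compared alone, a replicate block and each library left out.

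Genes named were Mpg, Aldh2, Gabra2, Pttg1 and Ublcp1, anchor genes of each list, and in each list the called gene that rose and the one that fell most without overlap at a mean log2 CPM of at least 3. Further named were the 10 in each direction over all genes at a mean log2 CPM of at least 5, the genes called in the genotype interaction with the 3 of smallest p in each direction, and 5 in each direction for the tissue interaction. Some genes that this rule names are not reported here. The members and lists were chosen with earlier results of these data known. Of 626 genes in 33 lists, 1 symbol was not matched. Tables were handled in Python 3.11.15 with numpy 2.4.6 and pandas 2.3.3. Shared 75-base words were counted on annotated exons, since reads from such stretches may be assigned to another gene or dropped.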

Additional observations from a re-analysis of the deposited data

Results flagged for a closer look

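Among 332 sets of 4 values that were examined (each named gene in KO at P5 and at 6W and a few measures beside them), 33 held a sample that stood far from the other 3, where chance gives 16.6. KO P5 replicate 1 was that sample in 15 sets. It was high for Aldh2 (23.2 CPM), Pttg1 (5.22 CPM), Mki67 (82.7 CPM), Mcm2 (15.1 CPM), Camk2a (396 CPM), Foxp2 (75.2 CPM), Uhrf1 (6.67 CPM), Ung (3.91 CPM), Npas4 (8.65 CPM), Adora2a (21.1 CPM), Cdh5 (52.9 CPM), Slit3 (12.4 CPM) and Penk (42.1 CPM), and low for Ublcp1 (4.42 CPM) and Grin2a (34.3 CPM). The genes in which it stood high thus include cell cycle, striatal and endothelial genes. KO P5 replicate 4 stood apart for Dpysl3 (2935 CPM) and Car10 (13.9 CPM), and KO P5 replicate 2 for Gh (3.20 CPM).

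At 6W, KO replicate 4 stood apart in 6 sets, with Mobp at 226 CPM, Sqle at 77.0 CPM, Hk1 at 226 CPM, Cx3cr1 at 71.1 CPM, Robo1 at 93.1 CPM and Cntnap1 at 266 CPM. KO replicate 3 did so in 5, with Scn3a at 34.8 CPM, mt-Co1 at 29305 CPM, P2ry12 at 48.6 CPM, Lpl at 33.0 CPM and Crym at 57.4 CPM. KO replicate 1 stood apart for Eomes (3.79 CPM) and Tubb2b (60.0 CPM), and KO replicate 2 for Xrcc1 (6.21 CPM) and Dpysl5 (22.3 CPM).

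The age step differed between genotypes, by the test of the difference itself, for Pttg1 (KO minus WT -4.20 on the log2 scale) and Aldh2 (-1.10). Between prefrontal cortex and hippocampus of KO mice it differed, as prefrontal minus hippocampal log2 change, for Crym (2.46), Car10 (2.46), Rasgef1b (2.33), Sstr2 (2.24), Fam107a (2.02), Cpne6 (-2.16), Myo5b (-2.09), Adcy1 (-1.90) and Trpm3 (-1.89).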

How the results depend on the processing

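The count of genes changed in KO stayed within 1.5 times the reported one under the other scalings, filters and tools and with each library left out (9578 genes with the samples compared alone). A test against a log2 change of 1 left 3044 genes in KO, 3006 in WT, 130 in the tissue comparison and 1 in the genotype interaction. The interaction also called 1 gene with the samples compared alone and 1 on the total count scale, and 1 to 4 genes with single libraries left out. With a replicate block the counts were 11127 in KO, 11006 in WT, 2 in the interaction and 1895 in the tissue comparison. For the pairing check, same-numbered KO samples at P5 and 6W correlated at -0.409, 0.361, 0.0581 and 0.368. Between KO and WT the values were 0.641, 0.108, 0.181 and -0.323 at P5 and 0.528, -0.326, -0.223 and 0.2 at 6W, where replicate 1 correlated best with its own number at both ages and the others did not.

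The sign turned for genes that were not called. With single libraries left out, Adora2a ran from -0.17 to 2.19, Gh from -3.69 to 1.51, Ttr from -0.060 to 0.62, Cux2 from -0.17 to 0.051, Grin2b from -0.077 to 0.14, Th, an olfactory bulb marker, from -0.56 to 0.30, and the interaction of Ublcp1 from -0.021 to 0.20. On the total count scale Aldh2 changed by -0.039, Ldha by -0.033 and Grin2b by -0.16, and Grin2b was at -0.026 with no filter on low counts. Th was at 0.0047 with DESeq2, 0.0044 with median-of-ratios factors and 0.0079 with the samples compared alone. The cause of these turns was not tested.

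Of 1122 list counts recomputed under all alternatives, 1036 stayed within 1.5 times. On the total count scale 0 repair genes were higher, 2 postsynaptic and 2 astrocyte genes lower. Genes at a few counts, such as Pvalb at P5, carry counting error, and the median half-width of the interaction's 95% interval was 0.48. Single intervals can be too narrow where the difference is near 0.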
